A study of Mus musculus with 6 samples.

Results

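This account covers 10 genes of prostaglandin synthesis and signaling, selected by symbol: Pla2g4a, Ptgs1, Ptgs2, Ptges, Ptgis, Ptger1, Ptger2, Ptger3, Ptger4 and Ptgfr. Of these, 8 had a row in a table of 18943 genes, and Ptger2 and Ptger3 are not analysed here. The RNA came from MuSCs (muscle stem cells) of wild-type (WT) C57BL/6 mice, aged 8 weeks, that were purified by FACS and cultured for 5 days with DMSO, the solvent used as control, with endothelin-3 (ET-3) or with neurotensin (NT). Each of these peptides acts through G protein-coupled receptors (GPCRs), and the labels give 100 nM for each, whereas the methods of the study give other, higher doses. There were 2 libraries per group, although the design text speaks of triplicates, and the labels do not say whether the libraries came from separate cultures or animals, so that spreads and p-values refer to these libraries only. All groups shared genotype, age and culture time. Because the 10 genes were chosen from earlier results of the same libraries, their differences from DMSO are given as a description, with no p-value.

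Prostaglandins are made from arachidonic acid, which phospholipases cut from membrane lipids. Cyclooxygenases turn it into prostaglandin H, and terminal synthases convert this common intermediate into prostaglandin E, prostacyclin and other products, which leave the cell and act on GPCRs of the same or neighboring cells. In skeletal muscle, prostaglandin E acting on its EP4 receptor is known to promote the expansion of MuSCs after injury.

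The deposited values were read counts multiplied by a factor per library and rounded. They summed to between 4214458 and 4600575 per library, equal to between 3628952 and 5396233 reads on genes. The ET-3 pair and the NT pair each differed by no more than sampling noise (mean chi-square per gene 0.862 and 0.924), the DMSO pair by more (1.48). A gene was called when its adjusted p was at most 0.05 and its change at least 2-fold, in a limma fit over 13921 genes whose mean value reached 5, and log2 fold changes are on the scale of log2(value + 1). Markers of the labelled cell type were present, with Pax7 at 857 and 1070 under DMSO, 1754 and 1730 under ET-3, and 1653 and 1599 under NT. Other such markers went the other way. Cdh15 was called lower under both ligands, at 1547 and 1746 under DMSO, 483 and 462 under ET-3, and 496 and 436 under NT. Calcr lay between 0 and 3 in every library. The summed value of 8 markers of differentiating muscle, all called lower under both ligands, was 12592 and 13998 in controls, 408 and 450 after ET-3, and 414 and 312 after NT. RNA of differentiating muscle was thus far higher in the control cultures. In bulk RNA, fewer cells of a type and less RNA per cell cannot be told apart. The part of this difference in the results below was not tested.

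Of the 8 genes, 7 passed the filter on low values and Ptgfr did not. In ET-3-treated MuSCs, 3 of the 7 were called higher (Ptges, Ptger4 and Pla2g4a) and 1 lower (Ptgis), where 6.62% of all tested genes were called higher and 14.9% lower. In NT-treated MuSCs the counts were again 3 and 1, with those same members, and the background was 7.30% higher and 13.2% lower. By adjusted p alone, 4 members were higher and 1 lower under each ligand, against 30.6% and 33.2% of all genes for ET-3 and 29.7% and 32.5% for NT. The median log2 fold change of the 7 members was 0.77 under ET-3 and 0.59 under NT, that of all tested genes -0.01 in each. These counts come from the contrasts on which the genes had been chosen and nothing is read from them. The ET-3 and NT comparisons also share the DMSO libraries.

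**Figure D1:**
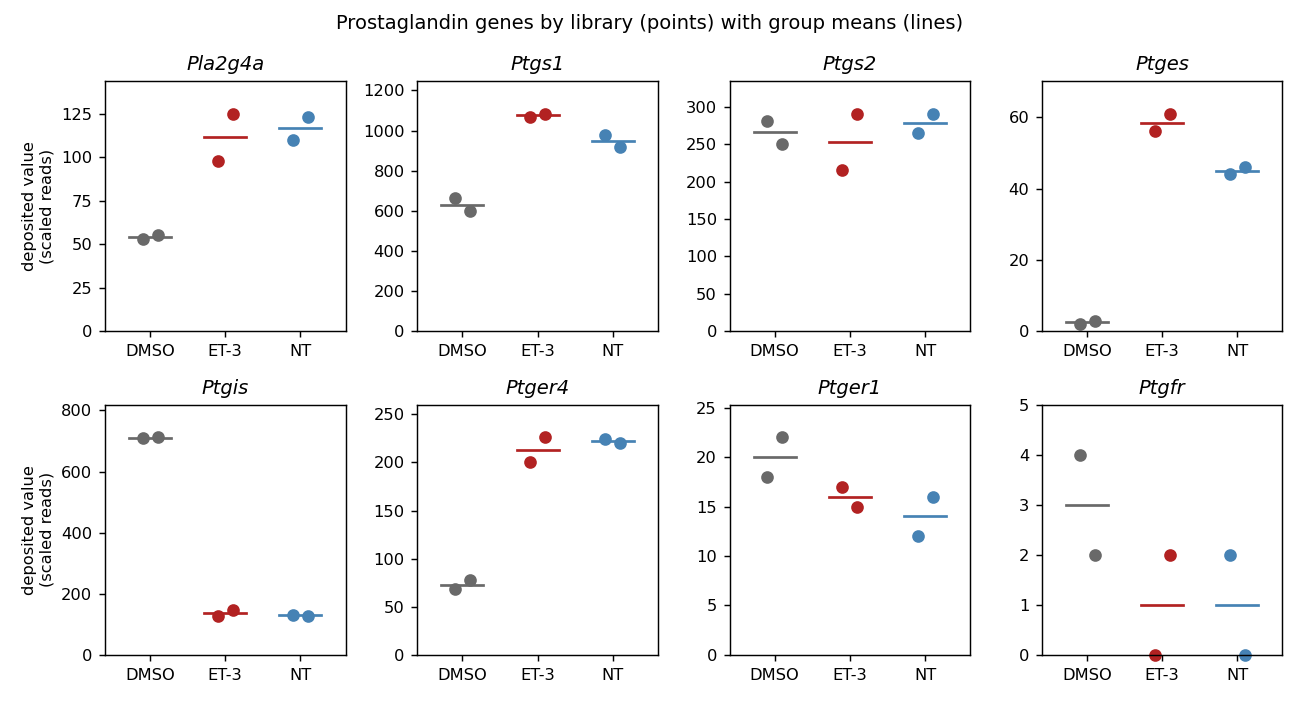
Deposited values (scaled reads, linear axes from 0) of the 8 genes with a row, with a point for each library and a line for each group mean of 2 libraries (gray DMSO, red ET-3, blue NT). Ptges lay at 2 and 3 with DMSO and at 44 to 61 with the ligands, Ptgis at 711 and 712 and at 127 to 146, whereas the 3 groups of Ptgs2 overlapped.

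Pla2g4a (chr1:149829618-149961290, minus strand, build GRCm38) encodes the cytosolic phospholipase A2 that releases arachidonic acid. Its value was 53 and 55 in the DMSO libraries, 98 and 125 after ET-3, and 110 and 123 after NT. Every treated library was higher than both controls, and the ET-3 and NT values overlapped. The log2 fold change was 1.02 ± 0.15 (SE, n = 2 per group) for ET-3 and 1.09 ± 0.15 for NT, just beyond the 2-fold threshold. Under ET-3 it dropped below 2-fold when the first DMSO library or the second ET-3 library was left out, or with a pseudocount of 5, and ranged from 0.85 to 1.20 over the alternatives.

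The cyclooxygenases differed from each other. Ptgs1 (chr2:36230426-36252272, plus strand), the cyclooxygenase that many cells make constantly, had values of 664 and 598 in controls, 1068 and 1084 after ET-3, and 977 and 918 after NT. The 3 groups did not overlap. Its log2 fold change was 0.77 ± 0.06 for ET-3 and 0.59 ± 0.06 for NT, which passed the adjusted p but not the 2-fold threshold. The NT change no longer passed the adjusted p when the libraries of a ligand were averaged. Ptgs2 (chr1:150100031-150108227, plus strand), the cyclooxygenase that cytokines and growth factors induce in many cells, was at 281 and 251 in controls, 216 and 291 after ET-3, and 265 and 291 after NT. All 3 groups overlapped, and the ET-3 libraries lay at both ends of the whole range. The log2 fold change was -0.08 ± 0.13 for ET-3 (95% interval -0.36 to 0.20) and 0.06 ± 0.13 for NT (-0.22 to 0.34), intervals that hold no 2-fold change. Leaving out the first or the second ET-3 library gave 0.13 or -0.30.

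The terminal synthases moved in opposite directions. Ptges (chr2:30889471-30929863, minus strand), the inducible microsomal prostaglandin E synthase, was at 2 and 3 in the DMSO libraries, 56 and 61 after ET-3, and 44 and 46 after NT. The control level was near the floor of detection, with 5 reads in both libraries together, against 103 reads with ET-3 and 110 after NT. After scaling, the ratio to DMSO was 22.2 for ET-3 (95% exact interval 9.21 to 69.8) and 17.0 for NT (7.06 to 53.3), where the intervals cover counting error only. On the log2 scale the changes were 4.10 ± 0.27 and 3.73 ± 0.27, which understate the ratios because the added 1 weighs on such low values. They ranged from 3.08 to 4.32 and from 2.74 to 3.94 over all alternatives.

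Ptgis (chr2:167191805-167240604, minus strand) encodes prostacyclin synthase. It had values of 711 and 712 in controls, 127 and 146 after ET-3, and 131 and 127 after NT. The DMSO libraries were nearly equal and far above all 4 treated libraries, which overlapped. The log2 fold change was -2.38 ± 0.08 for ET-3 and -2.45 ± 0.08 for NT, or 5.19-fold and 5.48-fold lower. Vascular smooth muscle and endothelium are known sites of Ptgis expression. The summed value of 6 smooth muscle and pericyte markers moved with it, from 2356 and 2815 in controls to 748 and 798 after ET-3 and 925 and 878 after NT. Notch3 (1397 and 1773 in controls) and Cspg4 (610 and 612) were the largest parts of each sum. Of these markers 4 were tested and 3 called lower under each ligand (Rgs5, Pdgfrb and Notch3). Of all tested genes, 14.9% were called lower under ET-3 and 13.2% under NT. Cspg4 was not called, and Kcnj8 and Myh11 stayed between 0 and 4 in every library. The sum of the 4 endothelial markers with a row moved the other way, from 12 to 24 in controls to 96 to 104 after ET-3 and 85 to 107 after NT, with Tek as the largest part of each treated sum. The part of such cells in the Ptgis values was not tested.

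Among the receptors, Ptger4 (chr15:5206661-5244187, minus strand) encodes EP4, the prostaglandin E receptor that couples to Gs and raises cyclic AMP. It was at 68 and 78 in controls, 200 and 226 after ET-3, and 224 and 220 after NT. Treated and control libraries did not overlap, and the ligands overlapped each other. The log2 fold change was 1.53 ± 0.11 for ET-3 and 1.59 ± 0.11 for NT, both called higher. Ptger1 (chr8:83666678-83672753, plus strand), for the calcium-mobilizing EP1 receptor, had low values of 18 and 22, 17 and 15, and 12 and 16 in the same order. Its changes of -0.30 ± 0.30 and -0.49 ± 0.30 did not pass the test, and their 95% intervals ran from -0.96 to 0.36 and from -1.16 to 0.17. Ptgfr (chr3:151796502-151837630, minus strand), the prostaglandin F receptor, had 6 reads in both DMSO libraries, 2 after ET-3 and 2 after NT. A difference was not detectable at this depth, with ratios to DMSO of 0.359 (0.0354 to 2.01) and 0.257 (0.0254 to 1.44).

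**Figure D2:**
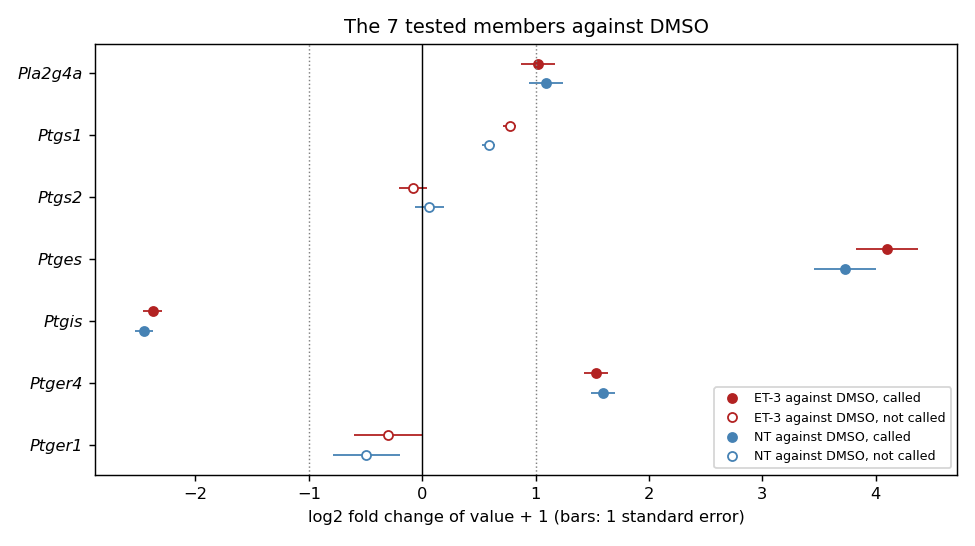
Log2 fold changes of value + 1 against DMSO for the 7 tested members (points, bars of 1 standard error, red ET-3, blue NT, filled when called, dotted lines at 2-fold). Ptges, Ptger4 and Pla2g4a lay to the right of the 2-fold line and Ptgis to the left for both ligands, with Ptgs1 between 0.59 and 0.77 and Ptgs2 near 0.

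Neighbors could bear on some of these values, since the sources disagree on whether the library kit marked strand. The paper states that reads on several genes were left out, so counting without strand would lose reads in shared bases. The size of such an effect was not tested. Ptgs1 shares exonic bases with Gm43621, Ptgis with 1110018N20Rik, Ptger4 with Gm15937 and Ttc33, and Ptgfr with Gm43618, each on the opposite strand. Pla2g4a, Ptgs2 and Ptges share none.

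Of the 10 members, 8 were matched to RefSeq promoters (GRCm38.p6), and the 250 bases before the start are shown for the called members with an entry, because they were called higher together. Capitals mark matches on either strand to an E-box (CANNTG, a core bound by MyoD and myogenin), an AP-1 site (TGANTCA), a core cyclic AMP element (ACGTCA), a TEAD site (GGAATG) or a TATA box (TATAAA). The windows are chr2:30903298-30903547 for Ptges, chr15:5244188-5244437 for Ptger4 and chr1:149961291-149961540 for the upstream start of Pla2g4a, all on the minus strand and written 5′ to 3′.
Ptges: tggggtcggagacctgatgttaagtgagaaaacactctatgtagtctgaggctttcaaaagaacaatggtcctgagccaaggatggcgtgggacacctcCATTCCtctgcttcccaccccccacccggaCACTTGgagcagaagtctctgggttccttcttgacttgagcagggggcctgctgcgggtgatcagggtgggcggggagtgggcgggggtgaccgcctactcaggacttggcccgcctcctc
Ptger4: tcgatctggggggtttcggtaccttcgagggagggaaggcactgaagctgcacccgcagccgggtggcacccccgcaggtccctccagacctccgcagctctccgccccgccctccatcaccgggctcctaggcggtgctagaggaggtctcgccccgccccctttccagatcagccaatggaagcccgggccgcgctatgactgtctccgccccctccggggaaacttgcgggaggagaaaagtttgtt
Pla2g4a: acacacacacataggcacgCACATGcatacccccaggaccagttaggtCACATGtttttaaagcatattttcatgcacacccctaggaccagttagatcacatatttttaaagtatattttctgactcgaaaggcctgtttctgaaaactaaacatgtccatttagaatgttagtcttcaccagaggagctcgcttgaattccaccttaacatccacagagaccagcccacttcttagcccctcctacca

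The Ptges window held 1 E-box and 1 TEAD match, that of Pla2g4a held 2 E-boxes, and that of Ptger4 held none of the 5 motifs. Of 32851 promoters of the same length, 66.2% held an E-box, 12.6% the TEAD letters, 12.4% a TATA box, 6.75% an AP-1 site and 6.47% a core cyclic AMP element. Thus no motif was shared by all 3 windows, and the matches are a description of letters only.

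Levels of different genes were compared per kb of exon. With DMSO the order was Ptgis (277 scaled reads per kb), Ptgs1 (162), Ptgs2 (58.1), Ptger4 (11.0), Pla2g4a (8.45), Ptger1 (3.66), Ptges (0.636) and Ptgfr (0.443), and only Ptges and Ptgfr overlapped. Ptgis therefore stood at percentile 97.6 of all genes with a length. With ET-3 the order became Ptgs1 (277), Ptgs2 (55.3), Ptgis (53.2), Ptger4 (32.0), Pla2g4a (17.4), Ptges (14.9), Ptger1 (2.93) and Ptgfr (0.148). The libraries of Ptgs2 and Ptgis overlapped there, as did those of Pla2g4a and Ptges. The order with NT was the same, with no overlap between neighbors, and Ptgs1 at 244, Ptgs2 at 60.7, Ptgis at 50.3, Ptger4 at 33.4, Pla2g4a at 18.2, Ptges at 11.4, Ptger1 at 2.56 and Ptgfr at 0.148. Ptgs1 thus replaced Ptgis as the member with the highest level.

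Ratios within a library do not depend on the scaling between libraries. Ptgis exceeded Ptges 544-fold and 363-fold per kb in the DMSO libraries, 3.47-fold and 3.67-fold after ET-3, and 4.56-fold and 4.23-fold after NT. The balance between the prostacyclin and the inducible prostaglandin E synthase transcripts was therefore unlike in controls and treated cells, although the control ratios rest on 5 reads of Ptges. Ptgs1 exceeded Ptgs2 2.79-fold and 2.81-fold, then 5.83-fold and 4.39-fold, then 4.35-fold and 3.72-fold. Ptger4 exceeded Ptger1 3.10-fold and 2.91-fold in controls, 9.66-fold and 12.4-fold after ET-3, and 15.3-fold and 11.3-fold after NT. For each ratio, the treated libraries lay on 1 side of both controls, and no test was applied.

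**Figure D3:**
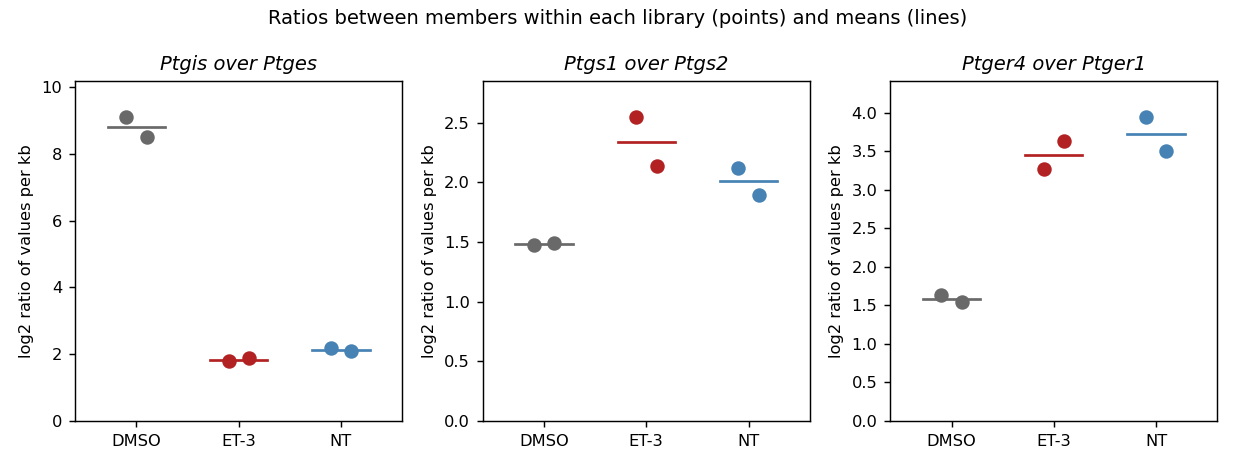
Log2 ratios of values per kb between pairs of members within each library (points, with a line at the mean of 2 libraries, axes from 0). Ptgis over Ptges was 363-fold or more in DMSO libraries and 4.56-fold or less in treated libraries, and the other ratios were higher in each treated library than in both DMSO libraries.

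ET-3 and NT were compared directly, which asks whether the ligands differed in these genes. None of the 7 members was called, and 0 passed at an adjusted p by limma, against 0.0790% and 2.69% of all genes. Only Ptgs1 had an unadjusted p under 0.05, as 19.9% of all genes did, and lay lower with NT than with ET-3, at a log2 fold change of -0.18 ± 0.06 (limma, Benjamini-Hochberg adjusted p = 0.119) in 2 of 2 libraries. With voom weights, an alternative added after the data were seen, its adjusted p was 0.0376. Ptges was lower with NT in 2 of 2 libraries as well (-0.37 ± 0.27, limma adjusted p = 0.501), with a 95% interval from -0.98 to 0.24. For Ptger4, Ptgis and Pla2g4a the 95% intervals of the difference were -0.18 to 0.30, -0.26 to 0.11 and -0.27 to 0.41, so that no 2-fold difference between the ligands lies within them.

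The rest of the pathway was examined with a list of 51 genes for release, synthesis, transport, breakdown and reception, and for the lipoxygenase branch that uses the same arachidonic acid. Of these, 40 had a row and 29 were tested. Under ET-3, 7 were called higher and 3 lower, and under NT 7 and 3, with median log2 fold changes of 0.28 and 0.07. The shares of all genes given above apply here as well. The list was written with earlier results known, so its counts, and the p-values printed for its genes, are a description of these genes only.

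**Figure D4:**
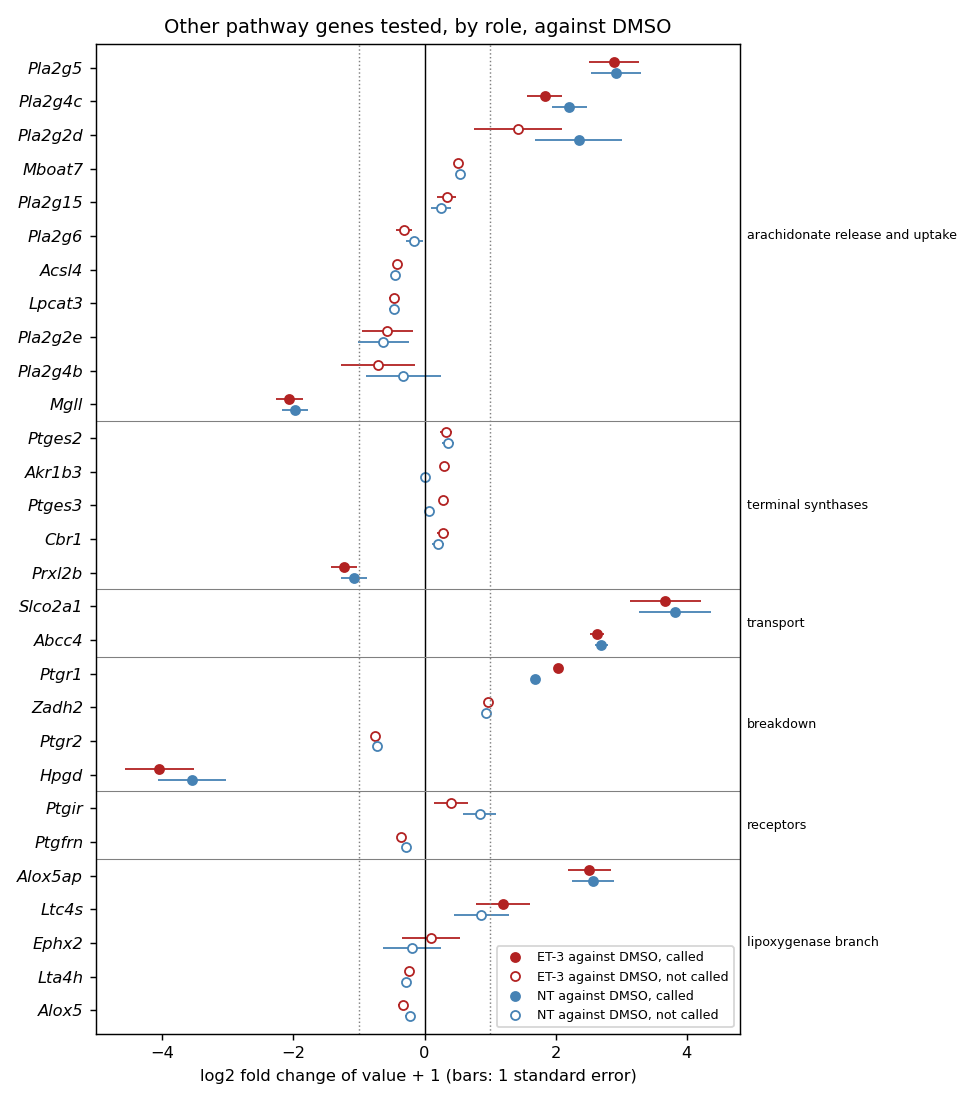
Log2 fold changes of value + 1 against DMSO for the 29 other tested pathway genes, grouped by role and ordered within a role by the ET-3 change (points, bars of 1 standard error, red ET-3, blue NT, filled when called, dotted lines at 2-fold). Both transport genes were called higher, and Hpgd and Mgll stood farthest to the left.

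Among 11 tested genes of arachidonate release and uptake, 2 were called higher and 1 lower under ET-3, and 3 and 1 under NT. Mgll, the monoacylglycerol lipase that frees arachidonic acid from an endocannabinoid, fell from 100 and 119 in controls to 23 and 28 after ET-3 and 27 and 27 after NT (log2 fold change -2.06 ± 0.20 and -1.98 ± 0.20, limma with Benjamini-Hochberg adjusted p = 1.13e-05 and 1.63e-05). The phospholipase genes that rose were all low. Pla2g4c was at 7 and 7, 29 and 26, and 39 and 33, and Pla2g5 at 2 and 1, 14 and 21, and 17 and 18. The NT call of Pla2g5 ended when the libraries of a ligand were averaged (limma adjusted p = 0.0506). Pla2g2d was called for NT only (4 and 0, 5 and 5, 9 and 12), and the difference between the ligands was not significant (limma adjusted p = 0.487). Its NT call was lost without either NT library (adjusted p = 0.0641 and 0.103), and leaving out the first DMSO library added a call under ET-3. Acsl4, which activates arachidonic acid for storage and had the highest mean of the group, passed the adjusted p at a small change (-0.43 ± 0.04 and -0.45 ± 0.04).

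Of 5 further terminal synthase genes, Prxl2b, a prostaglandin F synthase, was called lower, with 77 and 76 in the DMSO libraries, 33 and 31 after ET-3, and 32 and 40 after NT (-1.23 ± 0.20 and -1.08 ± 0.20). The NT change fell short of 2-fold without the first NT library, with a pseudocount of 5 and with scaling to the library total. Akr1b3, an aldose reductase with prostaglandin F synthase activity and the highest mean of this group, was at 444 and 443, 540 and 549, and 449 and 438. It passed the adjusted p under ET-3, at 0.30 ± 0.05, but not under NT.

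Both transporters rose. Abcc4, which exports prostaglandins, went from 79 and 93 in controls to 511 and 562 after ET-3 and 516 and 608 after NT (2.63 ± 0.10 and 2.69 ± 0.10, limma adjusted p = 1.63e-08 and 1.52e-08). Slco2a1, which takes prostaglandins up, was at 40 and 7 in controls, 226 and 234 after ET-3, and 257 and 253 after NT. Its control libraries differed from each other by far more than the treated ones, and its changes of 3.67 ± 0.55 and 3.82 ± 0.55 ran from 2.49 to 4.85 and from 2.64 to 5.00 when a library was left out. Both calls of Slco2a1 were lost when the libraries of a ligand were averaged (adjusted p = 0.170 and 0.165).

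The 4 tested genes of prostaglandin breakdown were split. Hpgd, the dehydrogenase that starts the inactivation of prostaglandins, had 29 reads in the DMSO libraries, 0 after ET-3 and 1 after NT. With the 0 reads of ET-3 set to a floor of 3 over the group, it was at least 8.98-fold lower by that rule. The exact 95% interval for 0 reads reaches down to 6.84-fold. No floor was applied for NT, where the 37.6-fold lower value (exact interval 6.23 to 1536) rests on 1 read. These 2 figures therefore cannot be set against each other. The log2 fold changes of Hpgd were -4.04 ± 0.52 for ET-3 and -3.54 ± 0.52 for NT. In contrast, Ptgr1, a reductase of the next step that also acts on leukotriene B, rose from 263 and 293 in controls to 1190 and 1091 after ET-3 and 918 and 879 after NT (2.03 ± 0.06 and 1.69 ± 0.06). Neither call of Ptgr1 against DMSO was lost in any alternative.

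Of 2 further receptor genes tested, neither was called, and Ptgfrn, a partner protein of the prostaglandin F receptor with the highest mean, passed the adjusted p at -0.36 ± 0.05 and -0.28 ± 0.05, the latter not with averaged libraries (limma adjusted p = 0.0597). The other, Ptgir, was not followed over the alternatives. It passed under NT (0.84 ± 0.26, limma adjusted p = 0.0158) but not under ET-3 (0.40 ± 0.26), and the ligands did not differ (limma adjusted p = 0.386). In the lipoxygenase branch Alox5ap, which presents arachidonic acid to 5-lipoxygenase, was called higher at 4 and 3 in controls, 23 and 26 after ET-3, and 21 and 31 after NT (2.51 ± 0.33 and 2.57 ± 0.33). Ltc4s, leukotriene C synthase, was called for ET-3 (5 and 3, 13 and 8, 7 and 9, log2 fold change 1.20 ± 0.41), a call lost in 7 of 15 alternatives, among them those without the second DMSO library (0.90) and without the first ET-3 library (0.88). Lta4h, a leukotriene A hydrolase with the highest mean, changed little (-0.23 ± 0.06 and -0.29 ± 0.06), and neither change passed with averaged libraries (limma adjusted p = 0.144 and 0.112). Macrophages are a usual source of this branch, and of 7 macrophage and blood markers Ptprc, Adgre1, Lyz2 and C1qa had no row. The other 3 summed to 34 and 35 in controls, 21 to 45 after ET-3, and 27 to 28 after NT, with neither of the 2 tested called. The sum hides unlike genes. Itgam, which was not tested, was at 14 and 7 in controls and 0 in every treated library. Cd68 was at 15 and 14, 41 and 16, and 24 and 22, and Csf1r at 6 and 13, 4 and 5, and 4 and 5.

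The genes most like Ptges and Ptgis over the 6 libraries were sought among 13920 others by the root mean square difference of their centered log2 values. Closest to Ptges were Gsta4 (0.107), a glutathione transferase, Prl2c3 (0.190), from a family of near-identical genes whose reads are uncertain, and Ptprz1 (0.235). Gsta4 was at 22 and 27 in controls, 465 and 474 after ET-3, and 392 and 399 after NT, and like Ptges lay lower with NT than with ET-3 in every library. Closest to Ptgis were Dusp27 (0.0778), a muscle gene, Plce1 (0.0823), a phospholipase C, and 4930451G09Rik (0.0853), with Dusp27 at 1248 and 1336, 222 and 238, and 252 and 222. The measure describes likeness between groups and little else, because the groups hold 2 libraries each.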

How the data were processed

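RNA-seq libraries of cultured MuSCs (2 each with DMSO, ET-3 or NT) were grouped by their labels. Single-end reads were trimmed by the authors, who, as the paper states, aligned them to mm10 (GRCm38) with STAR and counted exonic reads with featureCounts, without reads on several genes or regions. The submitters' processing notes name Trimmomatic 0.38, STAR 2.7.7a, featureCounts 1.6.5 and DESeq2 1.30.0, partly other versions than the paper, and labels and paper name different library kits. The deposited signal proved to be counts times 1 factor per library (0.781 to 1.19), rounded, and was used as deposited. Therefore the count test planned for raw counts was replaced by limma 3.58.1 (R 4.3.3) on log2(value + 1), with a mean-variance trend, over all 6 libraries, with Benjamini-Hochberg adjustment over 13921 genes with a mean of at least 5. The fit was tested on simulated data. Values divided by the factors gave reads, with exact 95% intervals that cover counting error only. Exonic lengths came from GENCODE M21 for 18920 genes, and promoters from RefSeq. Python 3.11.15 with numpy 2.4.6, pandas 2.3.3, scipy 1.17.1 and matplotlib 3.10.9 made tables and plots.

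The genes, the gene lists and the thresholds were chosen with earlier results of these data known. Named genes were all members, pathway genes called against DMSO or with the highest mean of their role, at most 4 called genes each of the cyclic AMP-responsive and Ptgs2 regulator lists by the size of the ET-3 change, markers beside results, and 3 genes most like the member with the largest rise and fall. Ptgir was named in addition, after its values were seen. Same-numbered libraries did not deviate together (r between -0.081 and 0.025 over 10209 genes), so numbers were not treated as pairs. Alternatives covered the filter, pseudocount, scaling, replicate block, a fit of 2 groups, averaged treated pairs, no fold threshold, each library left out and, added after the data were seen, voom.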

Additional observations from a re-analysis of the deposited data

Results flagged for a closer look

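In the direct comparison of the ligands, 2 of the 29 other pathway genes tested passed the adjusted p of limma's test without reaching a 2-fold change. Of all tested genes, 2.69% passed it. Ptgr1 was lower with NT than with ET-3, at 918 and 879 against 1190 and 1091, with a log2 fold change of -0.34 ± 0.06 (limma, Benjamini-Hochberg adjusted p = 0.0379, lower in 2 of 2 libraries). Akr1b3 was also lower with NT, at 449 and 438 against 540 and 549, with -0.30 ± 0.05 (limma, adjusted p = 0.0379, lower in 2 of 2 libraries). Over the alternatives the adjusted p of Ptgr1 ran from 0.00153 to 0.712 and that of Akr1b3 from 0.00334 to 0.712, and both passed with other pseudocounts, with other scalings and with voom, but not without the filter, with the replicate block, in a fit of 2 groups, with averaged pairs or when any library was left out.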

How the results depend on the processing

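Over the alternatives run, no named change reversed its call. The calls of Ptges, Ptgis and Ptger4 did not change either, but these are refits of the libraries on which the members were chosen and lend them no support. Without the fold threshold, 13 of the 29 other pathway genes tested were higher and 10 lower under ET-3, beside 30.6% and 33.2% of all genes. Under NT 11 were higher and 9 lower, beside 29.7% and 32.5%, and between the ligands 2 differed, beside 2.69%. With each treated pair averaged 4 were higher under NT, where fewer samples entered. Leaving out 1 library gave 2 to 3 members higher under ET-3 and kept the other counts of members. For the other pathway genes it gave 6 to 9 higher and 3 to 4 lower under ET-3, and 6 to 7 and 2 to 4 under NT. The replicate block left 3 members higher and 1 lower under each ligand, and took from Ptgr1 and Akr1b3 the pass between the ligands (limma adjusted p = 0.0718 and 0.0691). Scaling to the library total moved the median of all genes from -0.01 to 0.08 for ET-3 and from -0.01 to 0.10 for NT. The planned tests of raw counts were not run, since the values are scaled. Depth limits Ptges and the low phospholipase genes in controls, Hpgd after the ligands, and Ptgfr in all groups to counts of a few reads.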

Other observations

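EP4 raises cyclic AMP, and a list of 14 cyclic AMP-responsive genes was therefore examined, all tested. Under ET-3 3 were called higher and 6 lower, against 3 and 5 under NT, where 6.62% and 14.9% of all genes were called under ET-3 and 7.30% and 13.2% under NT. Fos, an immediate early transcription factor, fell from 195 and 231 in controls to 37 and 40 after ET-3 and 49 and 55 after NT (log2 fold change -2.43 ± 0.15 and -2.01 ± 0.15, limma). Ppargc1a, a coactivator of mitochondrial genes, fell from 70 and 62 to 14 and 14 and to 21 and 22. In contrast, Fosb, a relative of Fos, rose from 19 and 25 to 99 and 94 and to 86 and 97 (2.10 ± 0.18 and 2.02 ± 0.18), and Nr4a2, a nuclear receptor, from 66 and 38 to 168 and 207 and to 216 and 217. The list thus moved in both directions, with a median log2 fold change of -0.52 under ET-3 and -0.35 under NT, against -0.01 over all genes in each.

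Of 13 regulators of Ptgs2 transcription or RNA stability, all tested, 0 were called higher and 2 lower by ET-3, and 1 and 2 by NT, beside the same shares of all genes as above, with medians of -0.11 in each. By limma's unadjusted p under 0.05, 12 and 9 of the 13 differed, where 67% and 65.8% of all tested genes did. Cebpd, a transcription factor, fell from 193 and 217 to 68 and 57 after ET-3 and 50 and 47 after NT. Zfp36l1, which destabilizes RNAs with AU-rich elements, fell from 367 and 412 to 189 and 168 and to 187 and 194. Nfatc1 was at 149 and 127 in controls, 269 and 276 after ET-3, and 296 and 280 after NT, and passed the 2-fold threshold for NT only (0.98 ± 0.09 and 1.06 ± 0.09), while the direct test between the ligands gave an adjusted p of 0.678 by limma. Ptgs2 itself overlapped between all groups.

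Values of further marker lists stand here without explanation. The 4 fibroadipogenic markers with a row summed to 1476 and 1642 in controls, 985 and 1066 after ET-3, and 1143 and 1078 after NT, most of it Col3a1, with 0 of 3 tested genes called under either ligand. At limma's unadjusted p under 0.05, 2 of the 3 differed under ET-3 and 3 under NT, beside the same 67% and 65.8% of all genes. They did not move together. Col3a1 was lower under ET-3 and NT (log2 fold change -0.65 ± 0.06 and -0.55 ± 0.06). Ly6a (0.83 ± 0.27 and 0.98 ± 0.27) and Pdgfra (0.18 ± 0.26 and 0.70 ± 0.26) were higher. Dcn, which was not tested, was at 9 and 17, 0 and 2, and 0 and 0. The 3 Schwann cell markers with a row summed to 137 and 153, 627 and 617, and 619 and 682, most of it Ngfr, while Sox10 and S100b had no row. The 10 MuSC and myoblast markers summed to 9569 and 10484, 9519 and 9229, and 8316 and 7963. Of 9 tested, 2 were called lower under ET-3 (Cdh15 and Chrdl2) and 1 under NT (Cdh15), and 0 higher under either. Of all tested genes, 14.9% were called lower under ET-3 and 13.2% under NT.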
